A study of Mus musculus with 6 samples.

Results

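The lysyl oxidases and the collagen hydroxylases are the enzymes that modify and cross-link collagen. The 10 genes described here are the lysyl oxidases *Lox*, *Loxl1*, *Loxl2*, *Loxl3* and *Loxl4*, the lysyl hydroxylases *Plod1* and *Plod2*, and the prolyl 4-hydroxylase alpha subunits *P4ha1*, *P4ha2* and *P4ha3*. They were taken by symbol from a table of 37384 genes, and all 10 were found and had enough counts to be tested. The question asked of them was how the messages for collagen modification differ between adipocytes of mice with and without an adipocyte deletion of the Hippo pathway kinases *Lats1* and *Lats2*.

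RNA was sequenced from floated adipocytes of inguinal subcutaneous white adipose tissue (scWAT) of male mice at postnatal day 7, in 3 libraries labelled L1L2-FF and 3 labelled L1L2-AKO. L1L2-FF mice have floxed alleles of both kinases (Lats1 f/f Lats2 f/f), and L1L2-AKO mice have the same floxed alleles together with Adipoq-Cre, in which the adiponectin promoter drives Cre in adipocytes. Each library came from a pool of 4 mice, so the spread between libraries is between pools and not between mice. The cells were released with collagenase and separated by flotation, which leaves room for other cells that float with adipocytes or cling to them.

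Collagen chains are modified in the endoplasmic reticulum (ER) before they are secreted. Prolyl 4-hydroxylases, made of an alpha subunit that carries the active site and of protein disulfide isomerase encoded by *P4hb*, hydroxylate prolines and so stabilise the triple helix. Lysyl hydroxylases hydroxylate lysines of the helix and, in the case of *Plod2*, of the telopeptides, and these residues shape the later cross-links. Both kinds of hydroxylase use iron, oxygen, 2-oxoglutarate and vitamin C. Outside the cell, the copper-dependent lysyl oxidases convert lysines and hydroxylysines of collagen and elastin to aldehydes, from which the cross-links form. Stiff, cross-linked collagen is a known feature of fibrotic adipose tissue.

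Several of these genes are known targets of hypoxia-inducible transcription factors, and *Lats1* and *Lats2* restrain the coactivators YAP and TAZ, which act through TEAD factors at DNA. The sequence just upstream of the transcription start is therefore shown for the members of the RefSeq promoter set used here that differ most in their response: *P4ha1* and *P4ha2*, which rose, their relative *P4ha3*, which was not called, and *Loxl4*, which had the largest log2 fold change of the 10. Each stretch is 250 bases long, is written 5′ to 3′ on the strand of the gene, ends at the base before the RefSeq start and comes from RefSeq on GRCm38.p6. Capitals mark the core of the hypoxia response element (ACGTG or GCGTG, on either strand). The windows are chr10:59323046-59323295 on the plus strand for *P4ha1*, chr11:54100674-54100923 on the plus strand for *P4ha2*, chr7:100285270-100285519 on the plus strand for *P4ha3* and chr19:42612807-42613056 on the minus strand for *Loxl4*. The RefSeq starts of *P4ha2* and *Loxl4* lie inside their GENCODE genes.
P4ha1: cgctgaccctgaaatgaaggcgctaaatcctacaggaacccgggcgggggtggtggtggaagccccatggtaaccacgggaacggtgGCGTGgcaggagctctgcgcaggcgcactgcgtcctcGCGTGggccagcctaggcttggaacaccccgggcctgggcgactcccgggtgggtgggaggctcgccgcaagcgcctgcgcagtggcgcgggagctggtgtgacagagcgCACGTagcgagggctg
P4ha2: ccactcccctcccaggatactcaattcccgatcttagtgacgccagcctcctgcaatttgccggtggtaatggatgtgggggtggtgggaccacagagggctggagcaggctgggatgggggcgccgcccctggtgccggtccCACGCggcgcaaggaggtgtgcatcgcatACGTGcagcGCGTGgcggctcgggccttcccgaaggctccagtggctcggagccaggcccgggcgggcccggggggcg
P4ha3: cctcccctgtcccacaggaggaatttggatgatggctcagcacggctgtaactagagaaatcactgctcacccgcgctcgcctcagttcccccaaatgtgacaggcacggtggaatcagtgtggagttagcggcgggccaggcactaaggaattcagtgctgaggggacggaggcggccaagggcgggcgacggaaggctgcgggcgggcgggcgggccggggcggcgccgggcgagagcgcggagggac
Loxl4: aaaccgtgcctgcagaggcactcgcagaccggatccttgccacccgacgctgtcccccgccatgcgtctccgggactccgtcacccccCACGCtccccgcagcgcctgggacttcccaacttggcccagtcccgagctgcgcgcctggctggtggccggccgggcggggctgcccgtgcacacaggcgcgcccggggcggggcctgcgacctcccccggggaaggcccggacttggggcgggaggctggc

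*P4ha1* and *P4ha2* held 3 such cores each, *Loxl4* held 1 and *P4ha3* held 0. *Plod1*, the other member in the promoter set, held 1. Of 32851 promoters of the same length, 38.6% held at least 1 core and 6.58% held 3 or more. The TEAD motif GGAATG, which 12.6% of all promoters held on either strand, was in none of the 5 windows, and neither was the AP-1 motif TGANTCA, which 6.75% held. The SMAD motif CAGAC, at 42.2% of all promoters, occurred in the windows of *Loxl4* and *Plod1* with 1 match each. A match of letters, or its absence, describes the window only and does not show whether a factor binds there. Sequence outside the windows was not searched.

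The libraries held between 30548473 and 32107917 counts, and 15674 genes passed the filter on low counts. edgeR's quasi-likelihood test, two-sided and adjusted by Benjamini-Hochberg over these genes, gave an adjusted p under 0.05 for 16.5% of them, namely 9.28% that were higher and 7.18% that were lower with the L1L2-AKO label. The number called, 2580, became 1290 without replicate 1 of L1L2-FF, 1281 without replicate 2 of L1L2-AKO and 1374 without replicate 3 of L1L2-AKO. For 36.4% of the genes the libraries of the groups did not overlap in CPM, that is, counts brought to a common library size with TMM factors. As a check of the labels, *Lats1* fell by 1.04 on the log2 scale (adjusted p = 0.00131), whereas *Lats2* went against the label and rose by 0.64 (adjusted p = 0.0278; the call held in 2 of 6 fits with 1 library left out, the rise in all 6), so the groups are named here by their labels. Counts over whole genes do not show whether the floxed exons were lost. Of 13 markers of mature adipocytes, 5 fell and none rose, with *Adipoq* at 2108 ± 349 CPM in L1L2-FF and 878 ± 171 CPM in L1L2-AKO (SD, n = 3 each). Larger falls were those of *Cfd*, *Retn* and *Slc2a4*, with log2 fold changes of -4.14, -1.84 and -1.81 beside -1.26 for *Adipoq*. *Pparg*, named after its value was seen, was at -0.59. These falls were 4 to 7 with 1 library left out. The sums overlapped, at 32195 to 37843 CPM in L1L2-FF and 28153 to 37515 CPM in L1L2-AKO. Of the 8 not called, named here after their values were seen, *Lpl* was above in every library labelled L1L2-AKO (log2 fold change 0.52). *Plin1*, *Lipe* and *Pnpla2* were below, and the groups overlapped for *Plin4*, *Cidec*, *Lep* and *Fabp4*. Of 12 macrophage markers, 11 rose (6 without replicate 1 of L1L2-FF and 7 without replicate 2 of L1L2-AKO), and their summed level went from 282 to 556 CPM in the L1L2-FF libraries to 1025 to 1140 CPM in those labelled L1L2-AKO.

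With the L1L2-AKO label 6 of the 10 genes were higher, *Loxl1* was lower, and *Loxl3*, *Plod1* and *P4ha3* were not called. That is 70% called, beside the 16.5% of all tested genes, and the median log2 fold change of the 10 was 1.11 beside -0.02 for all tested genes. The groups did not overlap for 8 of the 10, beside 36.4% of all genes. Of these 8, the libraries labelled L1L2-AKO were above in 7 and below in *Loxl1*. The extremes were *Loxl4* and *Lox*, at log2 fold changes of 3.43 and 3.00, and per kilobase of exon *Lox* was the most abundant of the 10 in all 3 libraries labelled L1L2-AKO. With any 1 library left out, 5 or 6 of the 10 were called, and *Loxl1* and *Loxl2* were those lost. In bulk RNA such as this, more cells of a type that expresses a gene and more of its RNA per cell cannot be told apart.

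**Figure D1:**
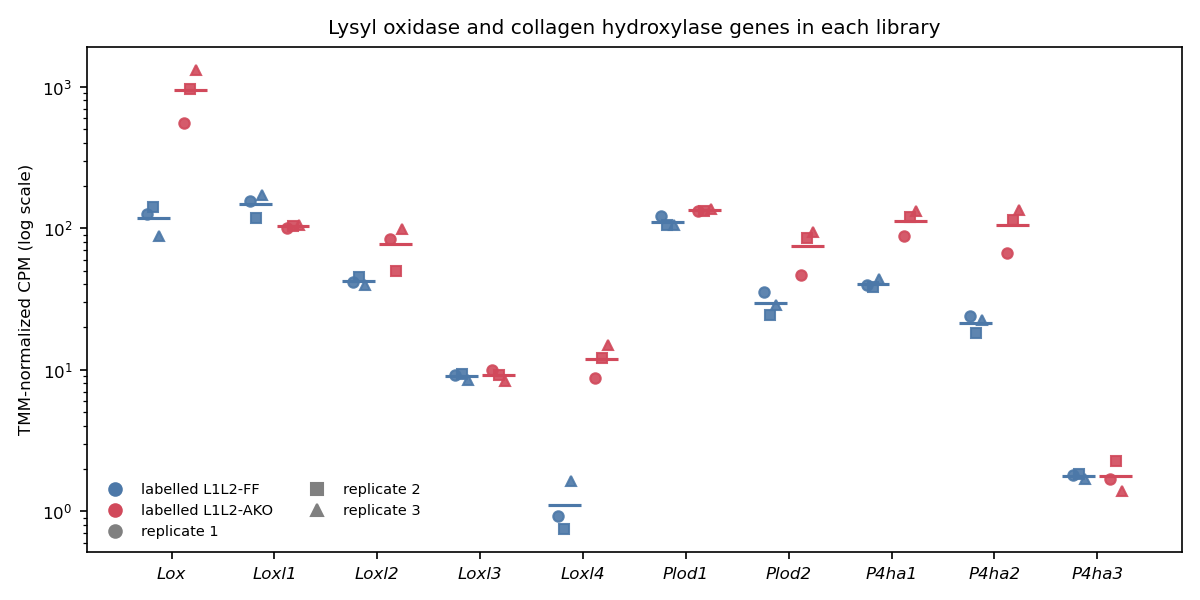
TMM-normalized CPM (log scale) of each gene in each of the 6 libraries. Blue symbols are libraries labelled L1L2-FF, red symbols are libraries labelled L1L2-AKO, the shape gives the replicate number and the horizontal bar is the group mean. The red symbols lie wholly above the blue ones for *Lox*, *Loxl2*, *Loxl4*, *Plod1*, *Plod2*, *P4ha1* and *P4ha2*, lie below them for *Loxl1*, and overlap them for *Loxl3* and *P4ha3*.

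*Lox* (ENSMUSG00000024529.14, chromosome 18, 52516067 to 52529867, minus strand; positions here are of mm10 with GENCODE M21) encodes the founding member of the lysyl oxidases. Its level was 126, 140 and 88.1 CPM in L1L2-FF replicates 1 to 3 and 555, 960 and 1312 CPM in L1L2-AKO replicates 1 to 3. The lowest library labelled L1L2-AKO was thus well above the highest L1L2-FF library, although the libraries labelled L1L2-AKO differed among themselves by 2.36-fold. The group means were 118 ± 26.9 and 942 ± 379 CPM (SD, n = 3 each). The fitted rise was 7.98-fold, with a log2 fold change of 3.00 (SE 0.333, 95% interval 2.23 to 3.76) and an adjusted p of 0.00125 by edgeR's quasi-likelihood test. Of the 15674 tested genes, 141 had a larger log2 fold change than *Lox*, and 4 of these were at least as abundant on average. The counts behind these values ran from 2733 to 37566 reads, so the spread between libraries and not counting error set the precision.

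*Loxl4* (chromosome 19, 42593982 to 42612813, minus strand) encodes a lysyl oxidase with scavenger receptor domains, as *Loxl2* and *Loxl3* do. It was close to silent in L1L2-FF, with 29, 24 and 51 reads, and had 287, 379 and 431 reads in the libraries labelled L1L2-AKO. In CPM this was 0.926, 0.742 and 1.64 against 8.66, 12.0 and 15.0, with no overlap. The fitted rise was 10.8-fold, with a log2 fold change of 3.43 (SE 0.347, 95% interval 2.63 to 4.23) and an adjusted p of 0.00087. Larger log2 fold changes were found for 101 of the tested genes. Even after this rise its level per kilobase of exon, 2.83 ± 0.759 CPM per kb, was far under the 197 ± 79.2 CPM per kb of *Lox* in the same libraries.

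*Loxl2* (chromosome 14, 69609068 to 69695834, plus strand) rose less and less evenly. It stood at 41.8, 45.3 and 39.9 CPM in L1L2-FF and at 84.5, 49.5 and 99.4 CPM in L1L2-AKO, so that L1L2-AKO replicate 2 was only just above the highest L1L2-FF library. The log2 fold change was 0.88 (SE 0.232, 95% interval 0.34 to 1.41, adjusted p = 0.0377). Leaving out 1 library at a time ended the call in 5 of 6 fits and kept it only without L1L2-AKO replicate 2, with adjusted p-values from 0.00671 to 0.123 over the 6. Its counts are also less certain than those of the other members, because 45% of the 50-base stretches of its transcripts occur in another gene, mostly Gm21451, and the antisense gene Gm27177 covers 301 of its exonic bases. These neighbours had few reads of their own, at most 52 for Gm21451 and 21 for Gm27177 in any library. The counting program is not given, so these low counts do not settle how shared reads were assigned.

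*Loxl1* (chromosome 9, 58287738 to 58313186, minus strand), whose product is known for its part in elastic fibre maintenance, was the only member called lower. It had 156, 118 and 173 CPM in L1L2-FF and 99.9, 104 and 105 CPM in L1L2-AKO, where the libraries were close together. The fall was 1.44-fold, with a log2 fold change of -0.53 (SE 0.151, 95% interval -0.88 to -0.18), and its adjusted p of 0.0482 was just inside the threshold. Leaving out 1 library at a time ended this call in 5 of 6 fits, with adjusted p-values from 0.0071 to 0.154 over the 6, and kept it only without L1L2-FF replicate 2, the lowest of its group. The direction was the same in all of these fits, with log2 fold changes from -0.67 to -0.41.

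*Loxl3* (chromosome 6, 83034173 to 83052562, plus strand) had 9.16, 9.34 and 8.48 CPM in L1L2-FF and 9.98, 9.20 and 8.34 CPM in L1L2-AKO. The groups overlapped fully, and the log2 fold change of 0.03 (adjusted p = 0.924) had a 95% interval of -0.32 to 0.38. Its last exons overlap *Htra2* on the opposite strand over 535 bases, and *Htra2*, a mitochondrial protease gene, had 529 to 571 reads in L1L2-FF and 962 to 1108 in L1L2-AKO. The strand setting of the counts is not given in the sources used here, so reads in that overlap cannot be assigned with certainty.

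Of the lysyl hydroxylases, *Plod2* rose and *Plod1* was not called, and the difference between their changes was not tested. *Plod2* (chromosome 9, 92542223 to 92608428, plus strand), the telopeptide lysyl hydroxylase, had 35.5, 24.3 and 28.7 CPM in L1L2-FF and 47.0, 85.3 and 93.7 CPM in L1L2-AKO. Replicate 1 of L1L2-AKO was nearer to the L1L2-FF libraries than to the other two of its group, but the groups did not overlap. The rise was 2.55-fold, with a log2 fold change of 1.35 (SE 0.261, 95% interval 0.75 to 1.95, adjusted p = 0.0114). It was called in all 6 fits that left out 1 library, with a highest adjusted p of 0.0489.

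*Plod1* (chromosome 4, 147909753 to 147936767, minus strand), which encodes a hydroxylase of the helix, was 122, 105 and 106 CPM in L1L2-FF and 132, 132 and 137 CPM in L1L2-AKO. Every library labelled L1L2-AKO was above every L1L2-FF library. The log2 fold change was 0.27 with a 95% interval of 0.02 to 0.52, and the adjusted p of 0.136 did not pass the threshold.

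Of the prolyl 4-hydroxylase alpha subunits, *P4ha1* and *P4ha2* rose. *P4ha1* (chromosome 10, 59323296 to 59373304, plus strand), the main alpha subunit of most cells, was 39.6, 38.2 and 43.6 CPM in L1L2-FF and 87.7, 119 and 132 CPM in L1L2-AKO. The groups were well apart, and the 2.79-fold rise had a log2 fold change of 1.48 (SE 0.163, 95% interval 1.11 to 1.86, adjusted p = 0.00119). *P4ha2* (chromosome 11, 54100095 to 54131665, plus strand), an alternative alpha subunit, was 23.9, 18.1 and 22.4 CPM in L1L2-FF and 66.7, 114 and 135 CPM in L1L2-AKO. Its rise was 4.90-fold, with a log2 fold change of 2.29 (SE 0.256, 95% interval 1.70 to 2.88, adjusted p = 0.00128). Both were called in all 6 fits that left out 1 library, at adjusted p-values of at most 0.0106 and 0.00916.

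*P4ha3* (chromosome 7, 100285520 to 100319699, plus strand) was barely expressed. It had 56, 59 and 52 reads in L1L2-FF and 56, 71 and 40 reads in L1L2-AKO, and the groups overlapped fully. The log2 fold change was 0.01 (adjusted p = 0.980), but the 95% interval ran from -0.63 to 0.66, so a change of moderate size was not detectable.

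**Figure D2:**
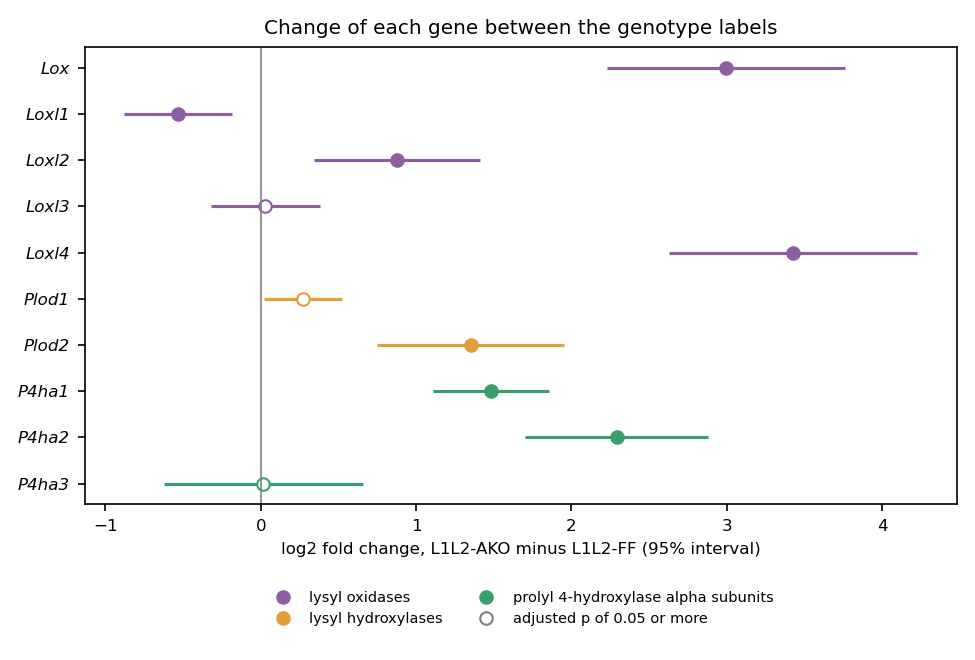
Log2 fold change of each gene, L1L2-AKO minus L1L2-FF, from edgeR's quasi-likelihood fit over 3 libraries per label, with its 95% interval as a horizontal line. Colours give the enzyme family and open circles mark genes with an adjusted p of 0.05 or more. *Lox*, *Loxl4* and *P4ha2* lie farthest to the right, and *Loxl1* is the only filled circle left of 0.

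The libraries labelled L1L2-AKO were not alike in these genes. Replicate 3 was the highest of its group for all 6 members called higher. Replicate 1 was the lowest for 5 of the 6, and for *Loxl2* the lowest was replicate 2. Summed over the lysyl oxidases, the level was 758, 1135 and 1539 CPM in L1L2-AKO replicates 1 to 3, a range of 2.03-fold. The summed macrophage markers in the same libraries were 1031, 1140 and 1025 CPM, a range of 1.11-fold. The summed endothelial markers were 2414, 1917 and 1111 CPM. The order of 3 libraries within a label does not bear on the difference between the labels. The macrophage markers separate the labels as the 6 called genes do, and their part in those rises was not tested. Schwann cell markers also separate the labels, downwards: 5 of 8 fell and none rose (median log2 fold change -1.83), with sums of 495 to 1265 CPM in L1L2-FF and 167 to 402 CPM in L1L2-AKO. That count was 1 in 4 of the 6 fits with 1 library left out (replicates 2 and 3 of L1L2-FF, and replicates 1 and 3 of L1L2-AKO). Of 12 progenitor and fibroblast markers, 3 fell and none rose, and their sums were 675 to 987 CPM and 564 to 672 CPM, also without overlap. These falls were 0 without replicate 1 of L1L2-FF or replicate 2 of L1L2-AKO, 1 without replicate 3 of L1L2-AKO and 5 without replicate 3 of L1L2-FF. Of 10 mural cell markers 1 rose and 2 fell (sums 1583 to 2003 CPM and 1544 to 1707 CPM), and of 10 endothelial markers 1 fell, with overlapping sums in both lists. With 1 library left out, 0 to 1 mural markers rose and 0 to 4 fell, and 0 to 2 endothelial markers fell. Over all tested genes, 9.28% rose and 7.18% fell. By edgeR's quasi-likelihood test 0 markers of skeletal muscle, of red cells and of lymphocytes, neutrophils and mast cells were called, where 2, 0 and 1 had an unadjusted p under 0.05 and DESeq2's Wald test called 2, 0 and 0. The skeletal muscle sums were low but did not overlap, at 11.7 to 20.7 CPM in L1L2-FF and 3.65 to 10.3 CPM in L1L2-AKO. The part of these other cells in the changes of the 10 genes was not tested.

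Levels between genes were compared per kilobase of merged exons. In L1L2-FF the order was *Loxl1* (45.1 ± 8.51 CPM per kb), *Lox* (24.7 ± 5.63), *Plod1* (16.4 ± 1.42), *P4ha1* (9.84 ± 0.688), *Loxl2* (7.84 ± 0.509), *Plod2* (5.47 ± 1.05), *P4ha2* (3.44 ± 0.489), *Loxl3* (1.95 ± 0.0989), *P4ha3* (0.562 ± 0.0247) and *Loxl4* (0.262 ± 0.113), as mean and SD of 3 libraries. No pair of neighbours in that order had overlapping ranges. In the libraries labelled L1L2-AKO *Lox* stood first at 197 ± 79.2 CPM per kb, well clear of *Loxl1* at 31.2 ± 0.794 and *P4ha1* at 27.5 ± 5.57, whose ranges overlapped. *Plod1* (19.7 ± 0.393), *P4ha2* (16.8 ± 5.60), *Loxl2* (14.4 ± 4.74) and *Plod2* (14.0 ± 4.62) followed, and each overlapped its neighbour among these. *Loxl4* (2.83 ± 0.759) overlapped *Loxl3* (1.99 ± 0.178), and *P4ha3* was last at 0.568 ± 0.139. With the length of the longest transcript in place of merged exons, *P4ha2* moved to the second place in L1L2-AKO, at 34.3 CPM per kb, and *Plod1* moved above *Lox* in L1L2-FF, at 27.0 against 24.9, with overlapping ranges.

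The make-up of the families differed between the labels, though not for every gene. *Loxl1* was the leading lysyl oxidase in L1L2-FF, at 56.5%, 47.2% and 65.1% of the family's summed CPM per kb, and *Lox* held 31.6%, 38.7% and 22.9%. In the libraries labelled L1L2-AKO *Lox* held 69.8%, 81.5% and 83.2%, and *Loxl1* held 18.2%, 12.8% and 9.63%. The ratio of *Lox* to *Loxl1* per kb was therefore under 1 in every L1L2-FF library (0.560, 0.820 and 0.352) and over 3 in every library labelled L1L2-AKO (3.83, 6.37 and 8.64). *P4ha2* went from 27.4%, 22.7% and 24.4% of the alpha subunits to 32.8%, 38.0% and 39.9%, and *P4ha1* was the larger in all 6 libraries. That order depends on the length used: with the longest transcript, *P4ha2* was 42.6%, 36.6% and 38.9% in L1L2-FF and 49.3%, 54.9% and 57.0% in L1L2-AKO, and it stood above *P4ha1* in the 3 libraries labelled L1L2-AKO. The *P4ha2* share was higher with the L1L2-AKO label by either length. *Plod2* went from 12.98%, 11.6% and 11.1% of the 3 lysyl hydroxylases, counting *Plod3*, to 15.0%, 23.6% and 22.4%. The shares of *Plod1* and *Plod3* and, among the lysyl oxidases, that of *Loxl2* overlapped between the labels. These shares have no test, as they are made from the values already compared.

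**Figure D3:**
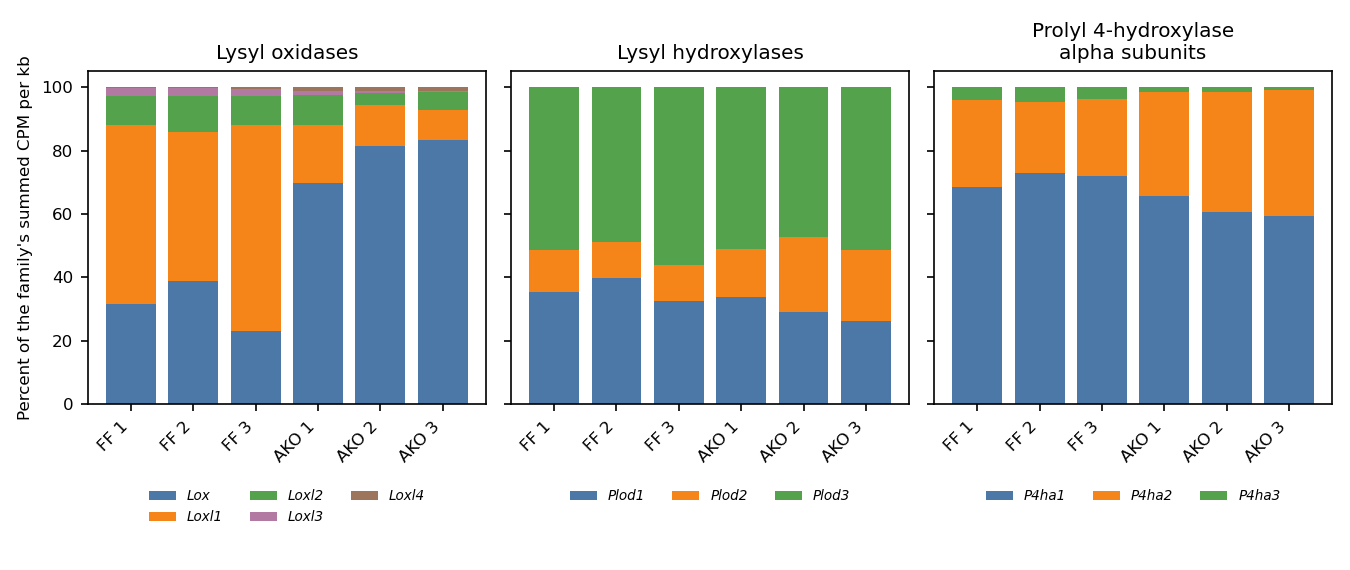
Make-up of each enzyme family in each library, as percent of the family's summed CPM per kb of exon; FF and AKO are the labels L1L2-FF and L1L2-AKO and the numbers are replicates. *Plod3* is added to complete the lysyl hydroxylases. *Lox* (blue, left panel) is 22.9% to 38.7% of the lysyl oxidases in FF and 69.8% to 83.2% in AKO.

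The enzymes were next set beside their main substrates. The summed level of 11 fibrillar collagen genes was 11648, 12570 and 8974 CPM in L1L2-FF and 12899, 12247 and 14163 CPM in L1L2-AKO, and the groups overlapped. Per 1000 CPM of fibrillar collagen, the lysyl oxidases summed to 28.7, 24.9 and 34.6 CPM in L1L2-FF and to 58.8, 92.6 and 109 CPM in L1L2-AKO, a 2.95-fold difference of the means. The P4ha genes summed to 5.61, 4.62 and 7.55 against 12.1, 19.2 and 19.0 CPM, a 2.83-fold difference. For *Plod1* and *Plod2* together the values were 13.5, 10.3 and 15.0 against 13.9, 17.7 and 16.3 CPM, and the groups overlapped. The change of the lysyl oxidase sum was carried by *Lox*, with mean levels of 118 CPM in L1L2-FF and 942 CPM in L1L2-AKO. The means of the others were 149 and 103 CPM for *Loxl1* and 42.4 and 77.8 CPM for *Loxl2*. For *Loxl3* they were 8.99 and 9.18 CPM, and for *Loxl4* 1.10 and 11.9 CPM.

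Within type I collagen, *Lox* per 1000 CPM of *Col1a1* was 54.3, 62.4 and 54.7 in L1L2-FF and 166, 298 and 339 in L1L2-AKO. *Col1a1* itself rose, from 2060 ± 391 to 3474 ± 346 CPM (SD, n = 3 each; log2 fold change 0.75, adjusted p = 0.0427), beside 3.00 for *Lox*. This call of *Col1a1* held in only 1 of 6 fits with 1 library left out, the one without replicate 2 of L1L2-FF, with log2 fold changes from 0.60 to 0.85 and adjusted p-values up to 0.119. *Col1a2*, which encodes the partner chain of type I collagen, had a log2 fold change of -0.24 (adjusted p = 0.480), and *Col3a1* one of -0.07 (adjusted p = 0.883). The alpha subunits were also compared with *P4hb*, which encodes the other subunit of the enzyme. *P4ha1* to *P4ha3* per kb came to 7.51%, 8.36% and 6.86% of *P4hb* in L1L2-FF and to 11.6%, 19.6% and 18.7% in L1L2-AKO.

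**Figure D4:**
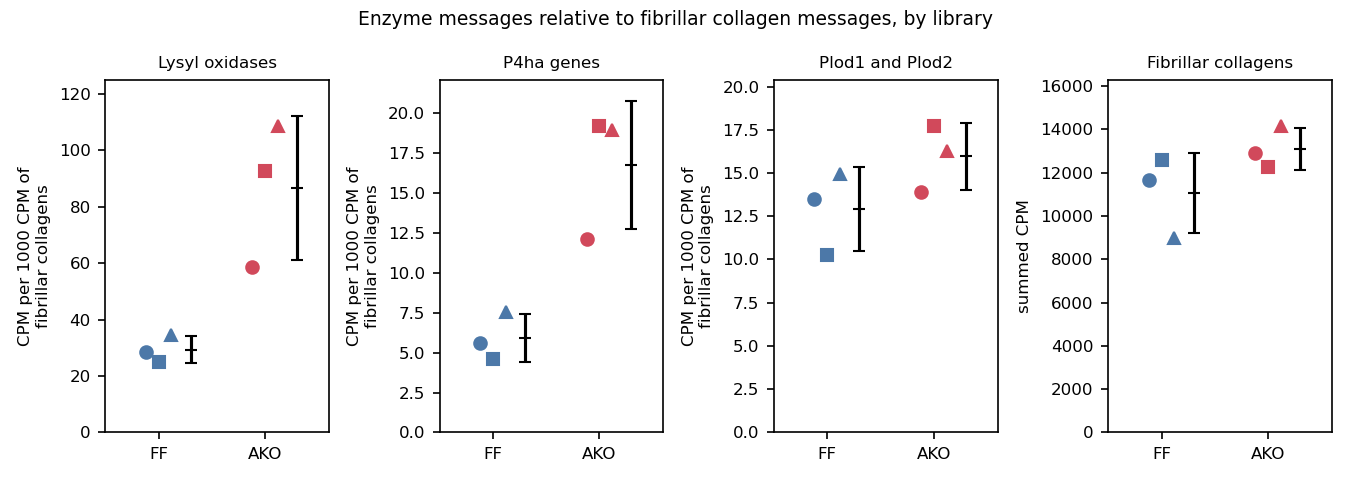
Summed CPM of the 5 lysyl oxidases, of the 3 P4ha genes and of *Plod1* with *Plod2* per 1000 CPM of fibrillar collagen genes, and the summed CPM of those collagens, by label. Symbols are libraries (circle, square and triangle for replicates 1, 2 and 3), and the black bar is the mean with SD of 3 libraries. AKO lies above FF in the first and second panels and overlaps it in the others. *Lox* makes up most of the lysyl oxidase sum in AKO.

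Genes of the same pathway were counted in 7 lists, with changes given as log2 fold changes from the same edgeR fit. The counts stand beside 9.28% higher and 7.18% lower over all tested genes. Among 18 other enzymes and chaperones that act on collagen in the ER, 8 rose and none fell (median log2 fold change 0.52). The number was 4 without replicate 3 of L1L2-AKO, and 5 without replicate 1 of L1L2-FF, replicate 1 of L1L2-AKO or replicate 2 of L1L2-AKO. *P3h2*, a prolyl 3-hydroxylase of basement membrane collagen, had 4.82, 4.73 and 3.61 CPM in L1L2-FF and 13.2, 39.3 and 46.3 CPM in L1L2-AKO (log2 fold change 2.91, adjusted p = 0.00381). *P3h1*, its relative for fibrillar collagen, rose by 0.98 (adjusted p = 0.00423), and *Creb3l1*, a transcription factor of collagen secretion, by 1.39 (adjusted p = 0.000457). The chaperone gene *Hspa5* rose by 0.71 (adjusted p = 0.0184), a call that held in 3 of the 6 fits with 1 library left out, whereas those of *P3h2*, *P3h1* and *Creb3l1* held in all 6. *Plod3* and *P4hb* were above in every library labelled L1L2-AKO but were not called, at log2 fold changes of 0.49 (adjusted p = 0.0957) and 0.56 (adjusted p = 0.0567).

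Of 14 tested genes of extracellular processing and other cross-linking, 4 rose and 1 fell (median 0.48). With replicate 2 or replicate 3 of L1L2-AKO left out 3 rose and none fell, and DESeq2's Wald test called 6 higher and 2 lower. *Fmod*, whose product fibromodulin binds collagen and lysyl oxidase, went from 6.22, 4.58 and 4.09 CPM to 72.3, 371 and 443 CPM (log2 fold change 5.89, adjusted p = 0.00141), and L1L2-AKO replicate 1 was again the lowest of its group. *Pcolce*, an enhancer of procollagen C-proteinase, rose by 1.58 (adjusted p = 0.00186), and *Bmp1*, the gene of that proteinase, which also cleaves the propeptide of lysyl oxidase, rose by 0.61 (adjusted p = 0.0328; held in 2 of 6 fits with 1 library left out). *F13a1*, a transglutaminase gene that macrophages are known to express, rose by 1.30 (adjusted p = 0.00234). The gene that fell in this list was *Tll1*, a relative of *Bmp1*, named here after its value was seen, with a log2 fold change of -1.62 (adjusted p = 0.0361; held in 1 of 6 such fits).

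Among the collagens themselves, 2 of 10 tested fibrillar genes rose and none fell (median 0.42), namely *Col1a1* and *Col5a1* (0.66, adjusted p = 0.0336). The count was 0 without replicate 1 of L1L2-FF, replicate 3 of L1L2-FF or replicate 3 of L1L2-AKO, and 1 without replicate 1 or replicate 2 of L1L2-AKO. Of 12 network and basement membrane collagens, 3 rose and none fell (median 0.23). Here 1 was left without replicate 1 of L1L2-FF or replicate 2 of L1L2-AKO, and that was *Col4a5*. *Col4a5* rose from 16.4 ± 3.31 to 259 ± 106 CPM (SD, n = 3 each; log2 fold change 3.98, adjusted p = 0.000479), and *Col8a1* by 2.06 (adjusted p = 0.0294; held in 2 of 6 fits).

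Of 12 genes of the elastic fibre, the other substrate of lysyl oxidases, 3 rose and 1 fell (median 0.16), and these counts were the same in all 6 fits with 1 library left out. *Fbln5*, whose product tethers *Loxl1* protein to elastin, went from 85.5, 91.0 and 58.3 CPM to 287, 745 and 796 CPM (log2 fold change 2.96, adjusted p = 0.00229). *Efemp2*, whose product fibulin-4 binds the precursors of lysyl oxidase and elastin, rose by 1.11 (adjusted p = 0.00173), and *Ltbp2* rose by 1.44 (adjusted p = 0.00988). The microfibril gene *Mfap4* fell by 1.32 (adjusted p = 0.00738). Elastin itself, *Eln*, named here after its value was seen, had a log2 fold change of -0.20 (adjusted p = 0.588).

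Genes of cofactor supply were mostly not called, as was the case for all tested genes, of which 16.5% were called. Of 10 genes of copper and vitamin C handling none rose and 1 fell (median -0.02), which was *Gsto1*, a dehydroascorbate reductase gene (-0.85, adjusted p = 0.00256), and 2 fell without replicate 2 of L1L2-FF. The copper pump gene *Atp7a*, which loads lysyl oxidases, had a log2 fold change of 0.05 (adjusted p = 0.886) and was named after its value was seen.

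Of 24 hypoxia-inducible genes other than the members, 1 rose, 6 fell and 17 were not called, with a median of -0.29. The number that fell was 3 without replicate 2 or replicate 3 of L1L2-AKO and 9 without replicate 2 of L1L2-FF. *Egln3* (-2.57, adjusted p = 0.0118), *Bnip3* (-1.35, adjusted p = 0.00725) and *Pfkfb3* (-1.17, adjusted p = 0.0120) were lower, all 3 being classical targets of hypoxia-inducible factors. *Adm*, the gene of adrenomedullin, was the exception, at 12.7, 11.6 and 8.73 CPM in L1L2-FF and 44.3, 116 and 119 CPM in L1L2-AKO (log2 fold change 3.08, adjusted p = 0.00171). Whether hypoxia signalling plays a part in the rise of *P4ha1* and *P4ha2*, which hold 3 hypoxia cores each in the windows shown, was not tested.

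**Figure D5:**
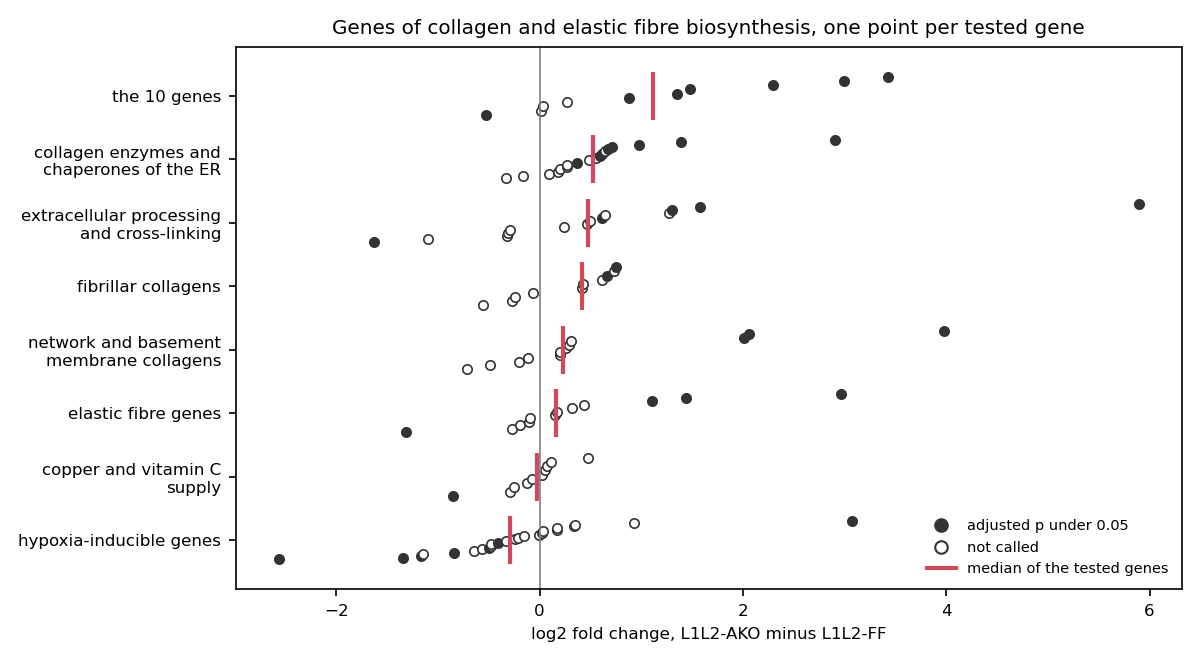
Log2 fold change, L1L2-AKO minus L1L2-FF, of each tested gene in the 10 and in the 7 pathway lists. Each point is a gene, filled where the adjusted p was under 0.05, and the red bar is the median of the list. The median is 1.11 in the 10 genes to 0.52 in the ER enzymes, 0.42 in the fibrillar collagens and -0.29 in the hypoxia-inducible genes.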

How the data were processed

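Floated adipocytes of inguinal scWAT were sequenced as paired ends in 6 libraries (3 per genotype label). The authors used FastQC for read quality, HISAT2 2.1.0 for alignment to mm10, and SAMtools and StringTie 1.3.5 thereafter, the versions being from the submitters' processing notes. The deposited table holds whole-number counts for each gene symbol with no normalization, and the counting program, annotation and strand setting are not given in the sources used here.

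Genes with enough counts by edgeR's filterByExpr (minimum count 10, minimum total 15) were kept: 15674 of 37384, with 21710 left out. Counts were scaled by TMM and tested with the quasi-likelihood test of edgeR 4.0.16 in R 4.3.3, two-sided, L1L2-AKO against L1L2-FF without a replicate block, with Benjamini-Hochberg adjustment over all tested genes and a threshold of 0.05. The square root of F was used to turn log2 fold changes into standard errors. CPM uses the TMM-scaled library sizes, and levels per kb use merged exons of GENCODE M21, in which 36888 symbols were matched. Shares of common sequence count 50-base stretches of transcripts found in another gene. Promoters came from the RefSeq table of GRCm38.p6, which held 5 of the 10 genes.

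The 10 genes, the 7 pathway lists and the 9 cell marker lists were chosen with earlier results of these data known. Named beside the 10 genes were, of each list, at most the 4 genes of largest absolute change among those called whose mean log2 CPM was 3 or more, and Plod3, P4hb, Col1a1, Col1a2 and Col3a1 in any case. The study describes the libraries of a genotype as biological replicates, so the p-values measure the spread between pools of mice. The smallest two-sided p that permuting 3 libraries against 3 allows is 0.1. Alternatives within edgeR's test were median-of-ratios size factors (RLE), library size alone, upper-quartile factors, and the 20 most abundant genes left out of library sizes. Also used within it were the robust setting, no filter, at least 10 counts in every library and an adjusted p under 0.01. Replicate number as a block and each library left out were further alternatives within it. Other tests were the Wald test of DESeq2 1.42.0 and limma-voom (limma 3.58.1).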

Additional observations from a re-analysis of the deposited data

How the results depend on the processing

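*Lox*, *Loxl4*, *Plod2*, *P4ha1* and *P4ha2* were called with the same direction at the threshold of 0.05 in all 6 fits that left out 1 library and in the 10 other fits. At an adjusted p under 0.01 the genes called went from 2580 to 1055 and the called members from 7 to 4 (*Lox*, *Loxl4*, *P4ha1* and *P4ha2*). Leaving out 1 library gave 1281 to 2845 genes and 5 to 6 members, *Loxl1* or *Loxl2* or both being lost; the lowest gene counts were 1281 (L1L2-AKO replicate 2 left out), 1290 (L1L2-FF replicate 1) and 1374 (L1L2-AKO replicate 3). *Loxl1* was also lost with median-of-ratios size factors in edgeR and with limma-voom, and *Loxl2* with limma-voom. *Loxl3* and *P4ha3*, called in no fit, changed sign in some. *Loxl3* was at -0.00528 with upper-quartile factors and ran from -0.0354 to 0.101 with 1 library left out. *P4ha3* was at -0.0181 with upper-quartile factors and -0.00723 with limma-voom, and ran from -0.188 to 0.167 with 1 library left out. The ratio to fibrillar collagen ranged without 1 library from 2.58 to 3.42 for the lysyl oxidases, from 2.55 to 3.28 for the P4ha genes and from 1.12 to 1.34 for *Plod1* and *Plod2*. Upper-quartile factors made 50.9% of the calls higher, against 56.4% with TMM. The replicate numbers are shared by the labels, and the deviations of same-numbered libraries correlated at 0.188, 0.255 and -0.0544, under 0.1 for the last. L1L2-FF replicates 1 and 2 were nearest to the library of the same number, whereas L1L2-FF replicate 3 was nearest to L1L2-AKO replicate 1 (0.211). These values do not settle whether same-numbered libraries were prepared together. With the replicate number as a block, 2514 genes and 5 members were called, without *Loxl1* and *Loxl2*, and *P4ha3* was at -0.00726. The block left 1 fibrillar collagen called in place of 2. Counts were low for *P4ha3* (40 to 71 reads per library) and, in L1L2-FF, for *Loxl4* (24 to 51 reads). How far depth limits these 2 genes was not tested.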
